A study of Mus musculus with 8 samples.

Results

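Blood and lymphatic endothelial genes were followed in the skin of mouse embryos that lack p63 and of their wild-type counterparts. The set comprised 10 genes, Tie1, Tek, Kdr, Flt1, Flt4, Eng, Cdh5, Pecam1, Plvap and Lyve1, out of 13675 genes with 1 annotated symbol on the arrays. A gene was represented by all its probe sets, groups of short oligonucleotides that together report on 1 transcript, whose annotation gave that symbol alone. This gave 18 probe sets, of which the A chip held 12 and the B chip of the same array set held 6.

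The embryos came from crosses of p63 heterozygous mice and were taken late in gestation, at E18.5. The groups were p63 null embryos, 2 arrays on each chip, and wild-type embryos, 2 arrays on each chip. p63, encoded by Trp63, is a transcription factor of stratified epithelia. The sources used here do not give the strain, the sex of the embryos or the part of the gene that is altered, and they do not say whether a number marks the same embryo on both chips. P-values rest on the spread between the 2 arrays of a genotype on each chip, drawn towards the spread of other probe sets of similar signal. For a probe set whose arrays nearly agree, they depend mostly on those other probe sets.

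Endothelial cells line blood and lymphatic vessels and respond to signals that arrive from surrounding tissue. Vascular endothelial growth factors (VEGF) bind the tyrosine kinase receptors Flt1 and Kdr on blood vessels and Flt4 mainly on lymphatic vessels, while angiopoietins bind Tek, with which the related receptor Tie1 associates. In skin, the vessels lie in the dermis and the subcutis, beneath an epidermis that has none.

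Promoter sequences are shown for receptor genes that rose by at least 1 probe set and for one that did not pass the test, since most of these genes moved in 1 direction. RefSeq promoters (GRCm38.p6, from 250 bases before to 50 bases after the annotated start) were at hand for 6 of the 10 genes. The 4 printed are those of Tie1, Eng and Flt1, the 3 of these 6 genes with the highest log2 ratio by their highest probe set, and of Kdr. The ratio used for Flt1 is that of 98452_at, while its B-chip probe set had a log2 ratio of -0.03. Capitals mark AGGAAG or its reverse complement CTTCCT, a form of the site bound by ETS factors, a family with members active in endothelial cells. Other forms of this site were not searched, so a window without capitals can still hold one. The Tie1 window is chr4:118489800-118490099 on the minus strand, that of Eng chr2:32646345-32646644 on the plus strand, that of Flt1 chr5:147725962-147726261 on the minus strand and that of Kdr chr5:75978406-75978705 on the minus strand.
Tie1: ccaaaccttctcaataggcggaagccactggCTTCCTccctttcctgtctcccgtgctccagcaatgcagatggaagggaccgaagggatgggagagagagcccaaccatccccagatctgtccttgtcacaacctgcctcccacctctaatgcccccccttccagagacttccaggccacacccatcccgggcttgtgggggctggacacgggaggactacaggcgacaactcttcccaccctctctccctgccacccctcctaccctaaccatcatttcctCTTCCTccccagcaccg
Eng: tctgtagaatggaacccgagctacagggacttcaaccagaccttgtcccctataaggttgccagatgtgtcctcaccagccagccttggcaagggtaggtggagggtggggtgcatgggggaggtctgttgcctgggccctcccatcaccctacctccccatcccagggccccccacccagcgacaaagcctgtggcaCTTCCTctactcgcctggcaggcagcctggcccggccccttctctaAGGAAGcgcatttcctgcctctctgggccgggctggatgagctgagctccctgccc
Flt1: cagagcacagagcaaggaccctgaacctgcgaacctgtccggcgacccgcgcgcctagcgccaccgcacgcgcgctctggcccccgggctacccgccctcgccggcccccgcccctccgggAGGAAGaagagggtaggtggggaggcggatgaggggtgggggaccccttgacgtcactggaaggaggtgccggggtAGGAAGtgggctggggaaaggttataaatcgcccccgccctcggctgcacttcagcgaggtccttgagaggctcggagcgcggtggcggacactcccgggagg
Kdr: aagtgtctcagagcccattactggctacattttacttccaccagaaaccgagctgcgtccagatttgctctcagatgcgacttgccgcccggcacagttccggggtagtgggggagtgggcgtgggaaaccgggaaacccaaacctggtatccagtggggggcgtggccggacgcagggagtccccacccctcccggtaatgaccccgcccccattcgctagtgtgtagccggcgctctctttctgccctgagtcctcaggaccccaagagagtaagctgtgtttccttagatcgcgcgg

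The letters occurred at positions -219 and 34 from the start in Tie1, at -52 and -6 in Eng and at -129 and -53 in Flt1, counted at the leftmost base of the match. No match was present in the window of Kdr, nor in those of Tek and Flt4, which each had a probe set that rose. On either strand, 35.4% of all 32851 RefSeq promoter windows of this length held AGGAAG. The second motif searched, AGATAA, a form of the GATA site, occurred in the window of Tek at position 37 and in none of the other 5, against 11.2% of all windows, and the motifs shared no base. A match is a description of letters and not evidence of binding.

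Of the 18 probe sets, 15 were bright enough to be tested, and they covered all 10 genes. A probe set was tested when its mean log2 signal over the 4 arrays of its chip was above the 40th percentile of that chip. A log2 ratio (log2 fold change) is the mean of the null arrays minus that of the wild-type arrays after log2(signal + offset), where the offset makes changes of dim probe sets look smaller, and adjusted p-values come from limma with Benjamini-Hochberg adjustment over all tested probe sets of a chip. The threshold was an adjusted p of 0.05.

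On the A chip 8 of the 10 tested endothelial probe sets rose in null skin and 0 fell, where 22.1% of all 7453 tested probe sets rose and 22.2% fell. The B chip had 3 of 5 that rose and 0 that fell, where 14.5% of all 7446 tested probe sets rose and 14.9% fell. The median log2 ratio of the tested endothelial probe sets was 0.77 on either chip, against 0.02 for all tested probe sets of the A chip and 0.04 for those of the B chip. A rise passed the test for at least 1 probe set of 8 of the 10 genes, and for all probe sets of 5 of them. Since 6 of the 10 genes had several probe sets, they had more chances to pass. The matching share over all genes was not computed, so the counts by probe set are those to set beside the chip. Kdr and Pecam1 had no probe set that passed.

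Trp63 itself, the mutated gene, read 61.9 and 46.6 in null skin, against 379.3 and 347.1 in wild-type skin, on the A chip (log2 ratio -2.49, SE 0.18, adjusted p = 1.13e-05). It is not known here whether this probe set covers the mutated stretch, so its value is a limited check of the labels. Other measures moved with genotype as well. The keratinocyte markers, which stand for the epidermis, had a summed signal on the A chip of 3983 and 4397 in null skin, against 39424 and 37744 in wild-type skin. Beta-actin signal at the 3' end over that at the 5' end, which follows how intact the labelled RNA was, came to 1.27 in both null arrays, against 1.63 and 1.69 in wild-type arrays, on the A chip. For the B chip it was 1.36 and 1.33 in null arrays, against 1.505 and 1.98 in wild-type arrays. The same ratio of Gapdh was 1.25 and 1.45 in null arrays, against 1.47 and 2.46 in wild-type arrays, on the A chip, and 1.26 and 1.51 in null arrays, against 1.55 and 2.66 in wild-type arrays, on the B chip, so that wild-type array 2 stood apart on both. Null array 2 stood apart on both chips in a control transcript added to the sample, the CreX spike, at 6420 against 3592 in null array 1 on the A chip. How far these measures contribute to the endothelial values was not tested. In whole skin, a change in the number of cells of a type cannot be told apart from a change in RNA per cell.

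Tie1, the orphan partner of the angiopoietin receptor Tek, rose about equally by both of its probe sets. Probe set 161184_f_at read 332 and 392 in null skin, against 181.4 and 159.4 in wild-type skin. Probe set 99936_at read 329.9 and 242.7 in null skin, against 138.9 and 128.8 in wild-type skin. Every null array lay above every wild-type array by either probe set, which was so for 37.8% of all tested probe sets of the A chip. The log2 ratios were 1.03 (SE 0.16, adjusted p = 0.000735) and 1.01 (SE 0.18, adjusted p = 0.00191). The letter f in the first name marks probes that can also bind related sequences.

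Tek, the angiopoietin receptor also called Tie2, read 222.7 and 182.2 in null skin, against 125.5 and 136.4 in wild-type skin. The groups did not overlap, although the 2 null arrays lay further apart than the 2 wild-type arrays. The log2 ratio was 0.58 (SE 0.17, adjusted p = 0.0233). This call did not hold when any of 3 arrays was left out, with adjusted p = 0.102 when this was null replicate 1, 0.0946 for wild-type replicate 1 and 0.0595 for wild-type replicate 2, nor with no filter on low signal (0.0516).

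**Figure D1:**
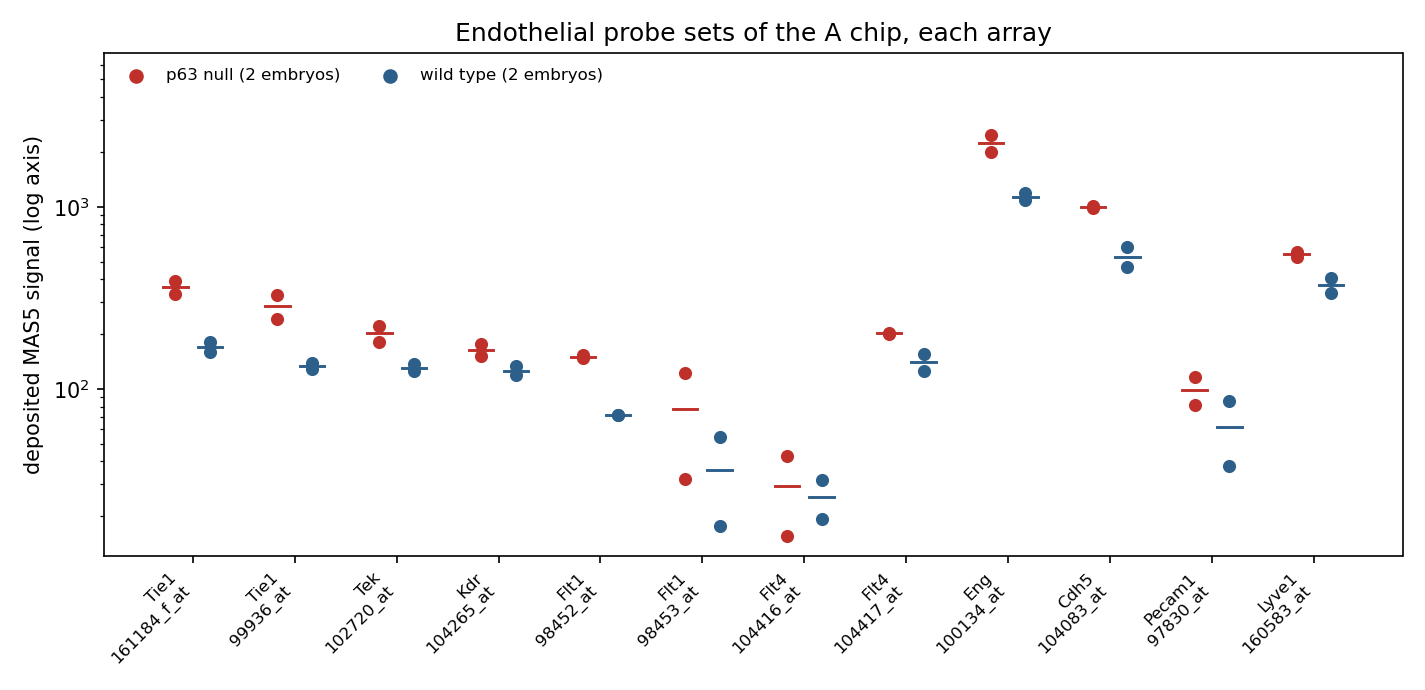
Deposited MAS5 signal (log axis) of the 12 endothelial probe sets of the A chip in each array, with p63 null embryos in red on the left of each pair and wild-type embryos in blue on the right, and the mean of 2 embryos as a bar. For 9 of the 12 probe sets both null arrays lay above both wild-type arrays, and 98453_at (Flt1), 104416_at (Flt4) and 97830_at (Pecam1) overlapped. All 9 were among the 10 tested, and 37.8% of all tested probe sets of the A chip had null above in this way.

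Of the VEGF receptors, Flt1 and Flt4 each had 1 probe set that rose and Kdr had none that passed, and differences between the receptors were not tested. Kdr, the main signalling receptor for VEGF-A, read 151.6 and 176.4 in null skin, against 133.3 and 119 in wild-type skin. Although the groups did not overlap, the log2 ratio of 0.35 did not pass (95% interval -0.05 to 0.74, adjusted p = 0.137). It did not pass under any of the other 11 settings in which it was tested either, with adjusted p from 0.104 to 0.426.

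Flt1, which binds VEGF-A tightly and is also made as a soluble form that holds the ligand back, gave different results by probe set. The A-chip probe set 98452_at read 148 and 153.1 in null skin, against 72.2 and 72.3 in wild-type skin. Embryos of a genotype were nearly equal by this probe set, and the log2 ratio was 0.94 (SE 0.18, 95% interval 0.53 to 1.35, adjusted p = 0.00284). The other A-chip probe set, 98453_at, read 32.2 and 122.3 in null skin, against 54.5 and 17.7 in wild-type skin. Its groups overlapped, its embryos disagreed by more than 1 log2 unit within either genotype, and it was too dim to be tested.

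The B-chip Flt1 probe set 106503_at read 164.1 and 387.6 in null skin, against 281.7 and 244.9 in wild-type skin. The null arrays lay on either side of the wild-type arrays. The log2 ratio was -0.03, with a 95% interval from -0.82 to 0.76 (adjusted p = 0.957), and it took the values 0.48 without null replicate 1, -0.54 without null replicate 2 and 0.05 without wild-type replicate 1. This interval overlaps that of 98452_at, and a difference between the probe sets of Flt1 was not tested. The transcript form that each of them detects was not known here.

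Flt4, the receptor for VEGF-C and VEGF-D on lymphatic endothelium, had 2 probe sets on the A chip. Probe set 104417_at read 203.8 and 199.9 in null skin, against 125.5 and 156.4 in wild-type skin. The groups did not overlap and the log2 ratio was 0.49 (SE 0.17, adjusted p = 0.0431), a call close to the threshold. It was lost when any 1 of the 4 arrays was left out (adjusted p from 0.0502 to 0.244), with median centring of the arrays (0.0524) and with no filter (0.0799). Probe set 104416_at was dim, at 15.6 and 43.1 in null skin, against 31.7 and 19.4 in wild-type skin, with overlapping groups, and was not tested.

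Endoglin (Eng), a co-receptor for ligands of the TGF-beta and BMP family on endothelial cells, rose on both chips. On the A chip 100134_at read 1991.9 and 2465.4 in null skin, against 1084.8 and 1186.5 in wild-type skin. It had the highest mean signal of the 12 endothelial probe sets there, and a log2 ratio of 0.96 (SE 0.13, adjusted p = 0.000446). Its B-chip probe set 116170_at read 494.1 and 500 in null skin, against 259.3 and 279 in wild-type skin. The log2 ratio was 0.77 (SE 0.18, adjusted p = 0.0177). The B-chip call needed both wild-type arrays, since leaving out replicate 1 gave 0.73 (adjusted p = 0.0979) and leaving out replicate 2 gave 0.81 (adjusted p = 0.0754). That on the A chip held in every setting tried.

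Cdh5, the cadherin of endothelial adherens junctions, also rose. Its probe set 104083_at read 1012.1 and 986.4 in null skin, against 465.4 and 600.5 in wild-type skin. The null arrays agreed more closely than the wild-type arrays and lay above both of them, with a log2 ratio of 0.90 (SE 0.14, adjusted p = 0.000914). Pecam1, an adhesion molecule of endothelial cells that platelets and leukocytes also carry, could not be settled. Its probe set 97830_at read 81.6 and 116 in null skin, against 86.3 and 37.9 in wild-type skin. The groups overlapped, and the log2 ratio was 0.64 with a 95% interval from -0.08 to 1.35 (adjusted p = 0.133). Wild-type replicate 1 decided the outcome, since without it the log2 ratio was 1.12 (adjusted p = 0.00998), and without wild-type replicate 2 it was 0.15.

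Plvap, which forms the diaphragms of fenestrae and caveolae in capillaries, had its 3 probe sets on the B chip. Probe set 111358_at read 1270.3 and 2146.7 in null skin, against 683.2 and 519.6 in wild-type skin. Both null arrays were higher, though far apart, and the log2 ratio of 1.39 was the highest among the 15 tested endothelial probe sets (SE 0.25, adjusted p = 0.00677). Probe set 165259_r_at read 1206.6 and 777.4 in null skin, against 893.1 and 864 in wild-type skin. These groups overlapped and the log2 ratio was 0.13 (95% interval -0.35 to 0.62, adjusted p = 0.655), changing to -0.17 without null replicate 1. The letter r in the name marks a probe set chosen under relaxed design rules. The third, 162849_at, read 85.2 and 146 in null skin, against 61.5 and 2.8 in wild-type skin, and was too dim to be tested, so 1 of 3 Plvap probe sets passed.

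Lyve1, a hyaluronan receptor of lymphatic endothelium that some tissue macrophages also carry, rose on both chips. The A-chip probe set 160583_at read 567.4 and 527.6 in null skin, against 336.4 and 404.8 in wild-type skin. The B-chip probe set 163511_at read 2007.6 and 2002 in null skin, against 1102.5 and 1075.6 in wild-type skin. Groups did not overlap on either chip, which on the B chip was so, with null above, for 36% of tested probe sets. The log2 ratios were 0.55 (SE 0.14, adjusted p = 0.0107) on the A chip and 0.85 (SE 0.12, adjusted p = 0.00275) on the B chip. The A-chip call did not survive leaving out wild-type replicate 1 (adjusted p = 0.0792), and the B-chip call held in every setting tried.

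**Figure D2:**
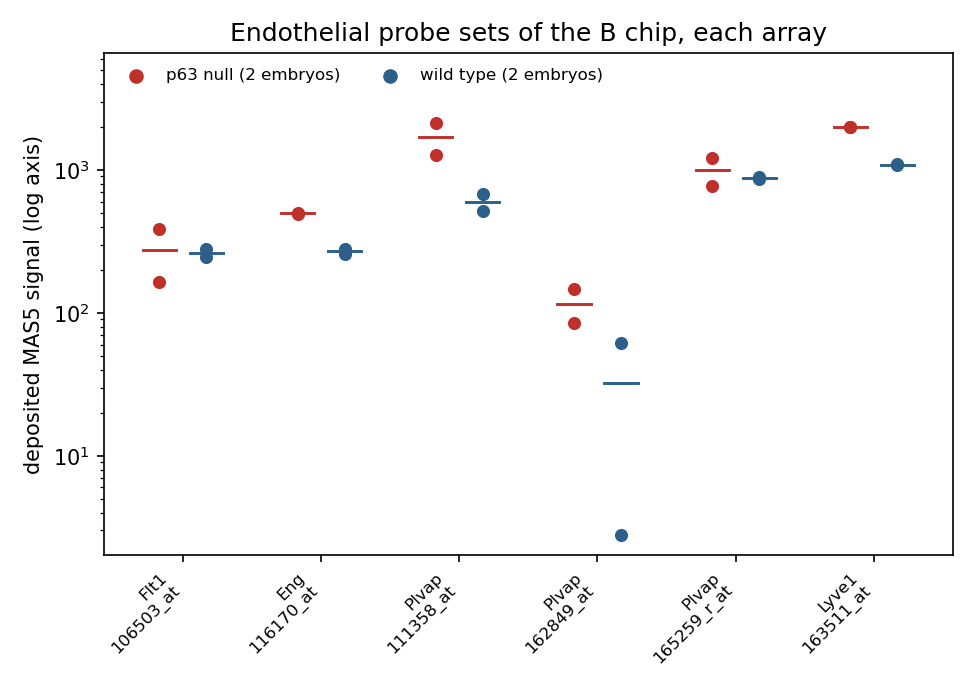
Deposited MAS5 signal (log axis) of the 6 endothelial probe sets of the B chip in each array, with p63 null embryos in red on the left of each pair and wild-type embryos in blue on the right, and the mean of 2 embryos as a bar. Both null arrays lay above both wild-type arrays for 4 of the 6 probe sets, while 106503_at (Flt1) and 165259_r_at (Plvap) overlapped. Of the 5 tested, 3 had null above, which was so for 36% of all tested probe sets of the B chip.

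The tested members of the A chip were not tested against each other, so they are not ordered here by the size of their change. Their log2 ratios ran from 0.35 (Kdr) to 1.03 (Tie1), and all 10 of their 95% intervals held the stretch from 0.68 to 0.74. On the B chip the interval of Plvap 111358_at, 0.80 to 1.98, lay above those of Flt1 106503_at and Plvap 165259_r_at. Those pairs were not tested against each other. Among all tested probe sets of the A chip, the log2 ratios of both Tie1 probe sets, Eng, Flt1 98452_at and Cdh5 lay between percentiles 91.8 and 93.8, and that of Kdr at percentile 71.6. Among those of the B chip, Plvap 111358_at lay at percentile 98.4, Lyve1 at 92.8, Eng at 91.3 and Flt1 at 44.5.

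**Figure D3:**
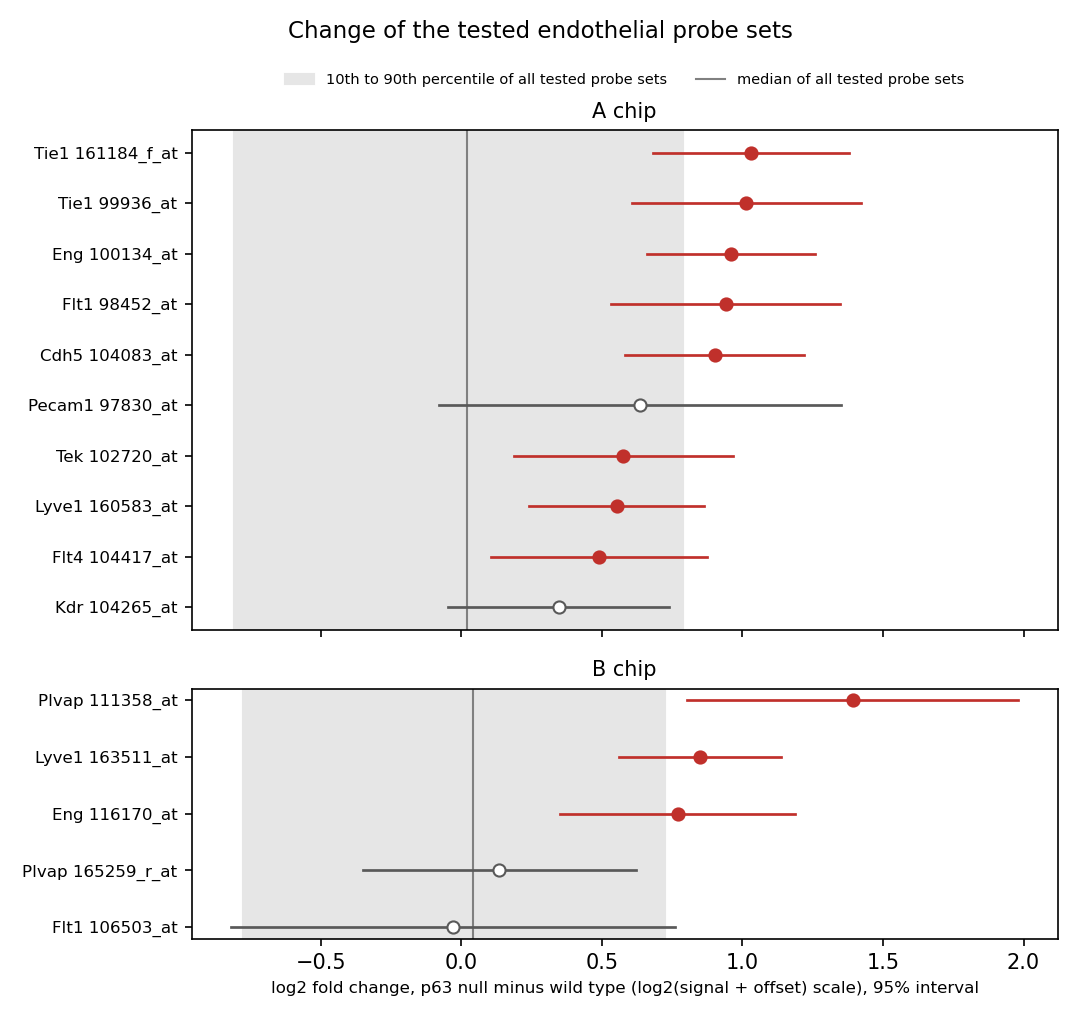
Log2 ratio (null minus wild type, x axis) of the 15 tested endothelial probe sets with 95% intervals from limma. Filled red points passed an adjusted p of 0.05 and open points did not, the grey band spans the 10th to 90th percentile of all tested probe sets of the chip and the line is their median. The points run from 0.35 to 1.03 for the A chip and from -0.03 to 1.39 for the B chip.

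Other genes were read from lists, with 1 probe set a gene and chip. Counts in these lists stand beside the shares of all tested probe sets, of which 22.1% rose and 22.2% fell on the A chip, with a median log2 ratio of 0.02, and 14.5% rose and 14.9% fell on the B chip, with a median of 0.04. Ligands and partners of these receptors were read from a list of 16 pathway genes. On the A chip 6 of 10 tested genes rose and 0 fell, with a median log2 ratio of 0.62. The 4 with the highest signal were Nrp1, a co-receptor for VEGF-A (1.11, adjusted p = 9.54e-05), Shc1, an adaptor of receptor tyrosine kinases (0.16, adjusted p = 0.357), the ligand Vegfb (0.79, adjusted p = 0.00212) and Acvrl1, the receptor kinase that works with endoglin (0.76, adjusted p = 0.00291). On the B chip 3 of 6 tested genes rose and 1 fell, with a median of 0.21, which was 0.11 without null replicate 1. There Tgfbr2, the type II TGF-beta receptor, and Ptprb, the vascular phosphatase that acts on Tek, rose by 0.55 (adjusted p = 0.0111) and 0.78 (adjusted p = 0.00645). Nrp2, a co-receptor of Flt4, fell by 0.54 on the log2 scale (adjusted p = 0.0441), and Plcg1, an effector of the VEGF receptors, had a value of -0.32 (adjusted p = 0.185). Leaving out wild-type replicate 1 left 1 of the 3 B-chip rises and leaving out wild-type replicate 2 left 0. The fall of Nrp2 needed both of these arrays and null replicate 2, and it was also lost with no filter (adjusted p = 0.0731) and with no variance trend.

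The other ligands in that list were named for this role after their values were seen. On the A chip, Vegfa read 65.7 and 89.6 in null skin, against 51 and 39.2 in wild-type skin (0.64, adjusted p = 0.0578, and 0.0405 without null replicate 1), and its B-chip probe set had a log2 ratio of -0.13 (adjusted p = 0.718). Of the Flt4 ligands, Vegfd rose by 0.60 (adjusted p = 0.00701) and Vegfc had a log2 ratio of 0.15 (adjusted p = 0.592). Of the Tek ligands, Angpt2, which can oppose Tek signalling, read 263.2 and 262.2 in null skin, against 182.3 and 197.6 in wild-type skin (0.44, adjusted p = 0.0350), a call that did not hold with any 1 array left out (0.0678 to 0.156). Angpt1, the activating ligand, was too dim to be tested, at 23.6 and 20.6 in null skin, against 32.1 and 17.7 in wild-type skin, and so was the Flt1 ligand Pgf, at 33.9 and 38.7 in null skin, against 25.3 and 27.4 in wild-type skin. Tgfb1, a ligand of the receptor system that endoglin belongs to, read 106.3 and 235.4 in null skin, against 22.3 and 45.6 in wild-type skin. Its arrays lay far apart within either genotype but did not overlap between them, and it rose by 1.92 (SE 0.36, adjusted p = 0.00246). Without null replicate 2 it was too dim to be tested.

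Of a list of 50 other genes of vascular endothelium, 33 were tested on the A chip, of which 12 rose and 2 fell, with a median log2 ratio of 0.40. Of 8 genes set down as markers of this cell type (Vwf, Emcn, Esam, Icam2, Cldn5, Egfl7, Robo4 and Cd34), the 5 tested there all rose, von Willebrand factor (Vwf) by 0.82, the adhesion molecule Icam2 by 0.85, the tight junction protein Cldn5 by 0.67, the sialomucin Emcn by 0.52 and Cd34 by 0.48, of which those of Emcn and Cd34 did not pass in every fit with 1 array left out. Of the 4 with the highest signal, Ramp2, a co-receptor for adrenomedullin, rose (0.53, adjusted p = 0.0117), while the caveolar protein Cav1 (0.22, adjusted p = 0.287), the water channel Aqp1 (0.19, adjusted p = 0.230) and the transcription factor Sox18 (-0.18, adjusted p = 0.300) did not pass. The other genes that did not pass, 19 in all with these, included the adhesion molecule Mcam (0.21, adjusted p = 0.315), thrombomodulin (Thbd, 0.42, adjusted p = 0.0999) and the coagulation inhibitor Tfpi (0.09, adjusted p = 0.665), named after their values were seen. The 2 that fell were Efnb2, an ephrin of arterial endothelium (-1.09, adjusted p = 0.000517), and Edn1, the vasoconstrictor endothelin-1 (-0.64, adjusted p = 0.04998), both also made outside vessels. Efnb2 read 370.9 and 279.8 in null skin, against 669.6 and 728.6 in wild-type skin. The call of Edn1 was lost without null replicate 2 (adjusted p = 0.221) and with quantile normalization (0.0568), among others. Leaving out wild-type replicate 1 left 7 rises and 1 fall and ended the calls of Ramp2 (adjusted p = 0.0946) and Edn1 (0.254), while that of Efnb2 held.

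Among vascular genes of the B chip 5 of 9 tested rose and 0 fell, with a median of 0.61. Ednrb, an endothelin receptor of vessels and melanocytes, read 5288.7 and 5443.5 in null skin, against 2929.9 and 2777.6 in wild-type skin (0.90, adjusted p = 0.00142). The apelin receptor Aplnr (0.65, adjusted p = 0.0446) and the endothelin-converting enzyme Ece1 (0.63, adjusted p = 0.0208) rose, and the hypoxia-responsive factor Epas1 had a value of 0.01 (adjusted p = 0.956). Robo4 and Esam, the other markers tested on this chip, rose by 0.61 and 0.65. Of the 5 rises, 3 were left with no filter and with no variance trend, 2 were left when wild-type replicate 1 was omitted and 1, that of Ednrb, when wild-type replicate 2 was.

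Genes of lymphatic vessels and their development were few. Of 14 listed, 7 were tested on the A chip, of which 3 rose and 0 fell, with a median of 0.35, which was 0.23 without wild-type replicate 1. The 4 with the highest signal were Sox18 (-0.18, adjusted p = 0.300), Vegfd (0.60), Lcp2 (1.08, adjusted p = 0.000805) and Syk (0.70, adjusted p = 0.00496). Lcp2 and Syk act in platelets and other blood cells to keep blood and lymph vessels apart and are not markers of the lymphatic endothelium itself. Of the genes set down as lymphatic markers, Prox1 and Foxc2 were too dim to be tested. Prox1, the master regulator of lymphatic identity, read 4.1 and 2.9 in null skin, against 1.4 and 2.3 in wild-type skin. Foxc2 read 55.5 and 39.9 in null skin, against 11.4 and 23.9 in wild-type skin. For either gene the groups did not overlap, with null above. Ccl21a and Mmrn1, also set down, had no probe set annotated with that symbol alone. Pdpn (0.35, adjusted p = 0.136) and Reln (0.16, adjusted p = 0.483) did not pass, and on the B chip Itga9, an integrin of lymphatic valves, had a log2 ratio of 0.38 (adjusted p = 0.141) beside the fall of Nrp2, which made 1 lower of 2 tested. The median of these 2 was -0.08 and changed sign with the array left out, between -0.23 without null replicate 1 and 0.07 without null replicate 2.

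Markers of other cell types that lie in or along vessels moved with genotype beside these genes. Of the macrophage list, which bears on Lyve1, Flt1 and Pecam1, all 14 tested A-chip genes and both tested B-chip genes rose, with medians of 1.23 and 1.05. The summed signal of the 16 macrophage genes on the A chip was 10765 and 11406 in null skin, against 4176 and 3897 in wild-type skin, and none of their values was 0. Ctss, a lysosomal protease, and the complement genes C1qc and C1qb rose by 1.98, 1.64 and 1.51, and Mrc1, the mannose receptor, which like Lyve1 is found on tissue macrophages, rose by 0.57 (adjusted p = 0.00460). The scavenger receptor Cd163 rose by 1.15 and F13a1 by 0.94 on the B chip. The part of macrophages in the rise of Lyve1 was not tested.

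Of the mural cells, the pericytes and smooth muscle that wrap vessels, 7 of 11 tested genes rose and 1 fell on the A chip, with a median of 0.65, and 2 of 5 rose and 0 fell on the B chip, with a median of 0.24. That B-chip median was 0.15 without null replicate 2, 0.49 without wild-type replicate 1 and 0.14 when wild-type replicate 2 was left out, and 1 gene fell without null replicate 1 or with the replicate block. The actin Acta2 (0.75), Notch3 (0.92) and Tagln (0.59) rose, the last not without null replicate 2 (adjusted p = 0.0558) or wild-type replicate 2 (0.0648), and Mylk did not pass (0.06, adjusted p = 0.707). The exception was Rgs5, a regulator of G protein signalling in pericytes, which read 261.6 and 185.4 in null skin, against 353.1 and 316 in wild-type skin, and fell by 0.57 on the log2 scale (adjusted p = 0.0279). Its B-chip log2 ratio was -0.61 (adjusted p = 0.0644), while the pericyte proteoglycan Cspg4 (0.94, adjusted p = 0.00464) and the channel subunit Abcc9 (0.78, adjusted p = 0.00493) rose and Mylk read -0.01 (adjusted p = 0.977). The A-chip call of Rgs5 was lost without null replicate 2, without either wild-type replicate and with no filter (adjusted p = 0.0676). On the B chip Rgs5 passed without null replicate 1. The summed mural signal on the A chip was 5246 and 5463 in null skin, against 3737 and 3758 in wild-type skin.

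Platelet and megakaryocyte genes, which bear on Pecam1, were few. None of the 5 on the A chip was bright enough to be tested, and their summed signal was 90.6 and 78.1 in null skin, against 93.7 and 77.4 in wild-type skin. Of the 3 on the B chip, Itgb3 rose (1.10, adjusted p = 0.0405) and Ppbp (-0.06, adjusted p = 0.835) and Treml1 (0.88, adjusted p = 0.128) did not pass, a median of 0.88, which was 0.25 without null replicate 2 and 1.22 without null replicate 1. The call of Itgb3, an integrin subunit of platelets and other cells, needed null replicate 2 and wild-type replicate 1 and was lost with no filter (adjusted p = 0.0965) and with no variance trend. A second gene passed without null replicate 1 and with the replicate block. All 11 tested keratinocyte genes of the A chip fell, with a median of -3.52, among them Lor (-5.42), Perp (-4.19), Krt1 (-3.14) and Krt10 (-1.71). Krt5 and Krt14 of this list were too dim there to be tested, in wild-type skin as well. Krt5 read 10.8 and 10 in null skin, against 6.4 and 11.8 in wild-type skin. Krt14 read 3.2 and 7.9 in null skin, against 15.9 and 4.6 in wild-type skin. Both keratinocyte genes tested on the B chip fell, Dsc1 (-4.08) and Dsg1a (-2.40), with a median of -3.24.

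**Figure D4:**
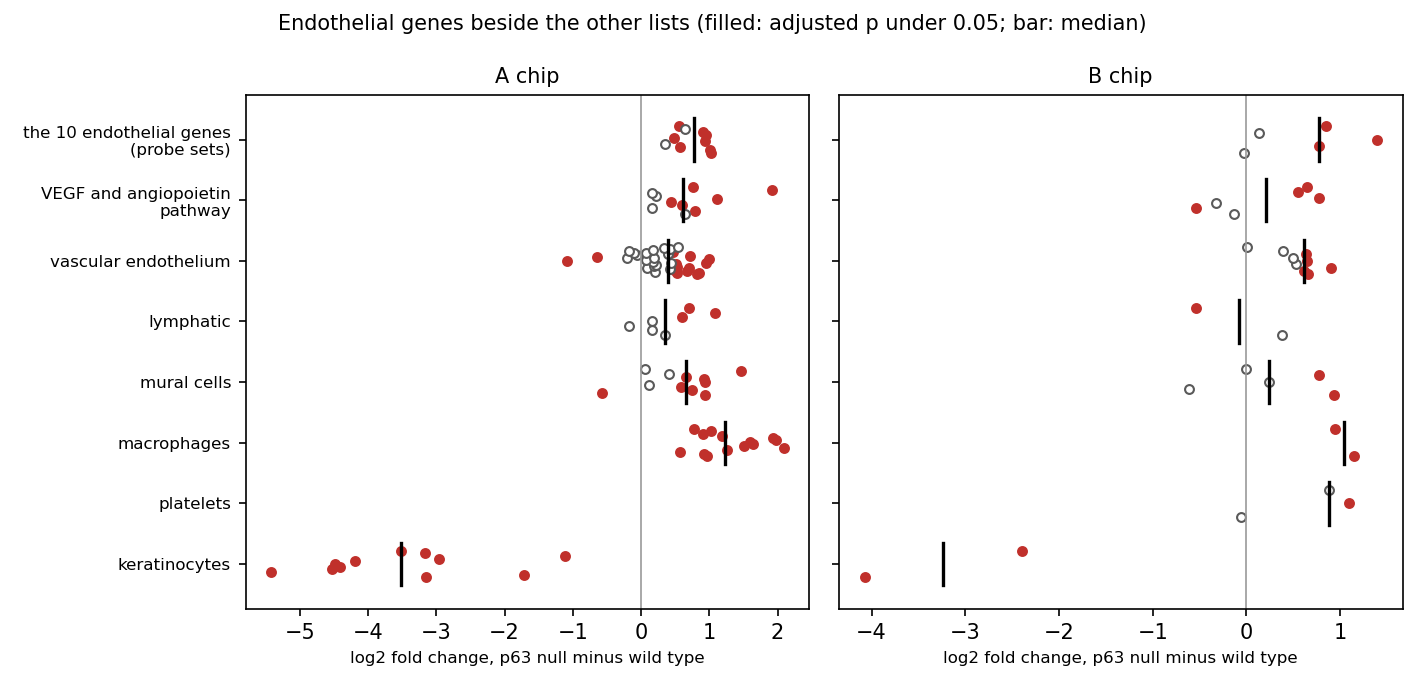
Log2 ratio (null minus wild type, x axis) of the tested endothelial probe sets and of the tested genes of 7 other lists (rows), with the A chip on the left and the B chip on the right. Filled points passed an adjusted p of 0.05 and bars are medians, which on the A chip were 0.77 for the endothelial probe sets, 1.23 for macrophages, 0.65 for mural cells and -3.52 for keratinocytes.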

How the data were processed

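Total RNA of whole skin was hybridised to single-colour oligonucleotide arrays, 8 in all. The authors deposited 1 linear intensity for each probe set, and the submitters' processing notes name MAS5 as the tool. Its version, detection calls and a genome build are not given in the sources. A-chip arrays had 2% trimmed means of 250.1 to 250.2 and B-chip arrays of 500.1, which shows that the deposited intensities were scaled before deposit.

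Trimmed means were made equal within a chip, then log2 was taken after adding an offset (the 20th percentile of the chip, 12.9 for the A chip, 54.3 for the B chip). Control probe sets, 66 a chip, did not enter the tests. Groups came from the sample titles. The chips were fitted apart with limma 3.58.1 (lmFit and eBayes with an intensity trend, two-sided) in R 4.3.3, without a replicate block. The fit was tested on simulated data. Precision is limited by how few arrays there are. Alternatives were quantile normalization, median centring, other filters and offsets, no variance trend, the replicate block and leaving out each array.

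Names came from the platform annotation, which gave 10855 A-chip probe sets 1 symbol, 396 several and 1237 none, and 10603, 178 and 1696 of the B chip. Of those with 1 symbol, 10839 and 10572 were found in the RefSeq table of GRCm38.p6. The other lists are from general knowledge and some share members, and a gene was read by its tested probe set of highest mean signal. Genes named are all members, and per list and chip the 4 tested genes of highest mean signal and those called against the majority, with the marker genes set down for the vascular and lymphatic endothelium. Others are said to have been named after their values were seen. The members and lists were chosen with earlier results of these data known.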

Additional observations from a re-analysis of the deposited data

How the results depend on the processing

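For the 15 tested endothelial probe sets, 112 of 115 values under other scalings, filters, offsets and variance models, and 46 of 60 values with 1 array left out, kept their direction and their side of the threshold. The number that rose on the A chip, 8, lay between 6 and 7 with 1 array left out, and that on the B chip, 3, between 2 and 3, with 0 falling throughout. Direction changed for Flt1 106503_at (from -0.54 without null replicate 2 to 0.48 without null replicate 1, and 0.05 without wild-type replicate 1) and for Plvap 165259_r_at (-0.17 without null replicate 1 and 0.44 without null replicate 2). The cause was not tested. The filters, the variance trend and the replicate block leave a log2 ratio as it is by design. Under those settings only the side of the threshold could change, and a kept direction carries no information. With 1 array left out, between 1075 and 1579 probe sets of the A chip rose (1646 with all arrays) and between 1052 and 1797 fell (1653), and on the B chip between 575 and 1244 rose (1083) and between 544 and 1354 fell (1106). The numbers are not stated to pair embryos, and deviations of same-numbered arrays from their group means correlated across probe sets at 0.04 for the A chip and -0.05 for the B chip. With the replicate block, 8 endothelial probe sets rose among those of the A chip and 3 among those of the B chip, and 1674 and 1229 of all tested probe sets rose. With the filter at the 60th percentile fewer genes were tested, which left 4 mural rises on the A chip and gave medians of 0.65 for lymphatic genes there and 0.55 for the pathway genes of the B chip. With median centring 7 endothelial probe sets rose on the A chip, where 1554 of all 7453 tested probe sets rose. With no filter 6 of its 12 endothelial probe sets rose, where 1483 of all 12422 rose.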

Other observations

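Some endothelial genes were too dim on the A chip to be tested in the comparison above, and are given as values only, having been named after these were seen. Nos3, the endothelial nitric oxide synthase, read 93.3 and 95.9 in null skin, against 14.3 in both wild-type arrays. Selp, the P-selectin of activated endothelium and platelets, read 40.7 and 70.4 in null skin, against 7.2 and 6 in wild-type skin, which lie below the chip's 20th percentile of 12.9. The A-chip probe set of Ptprb read 44.8 and 88.2 in null skin, against 19.7 and 16.2 in wild-type skin. These had the largest rises among the untested genes of the vascular and pathway lists on the A chip. Of the others there, S1pr1, Sele, Pgf and Aplnr also had both null arrays above both wild-type arrays, and Nck1 had both below. S1pr1 read 65.5 and 49.1 in null skin, against 36.9 and 41.5 in wild-type skin. Nck1 read 45.1 and 30.9 in null skin, against 52.6 and 52.9 in wild-type skin. The groups of the remaining untested genes of these lists on the A chip overlapped. Among the latter, Ednrb read 34.6 and 27 in null skin, against 39.6 and 24.4 in wild-type skin. Calcrl read 19.2 and 10.2 in null skin, against 18.9 and 15.3 in wild-type skin. For Tal1 the values were 24.5 and 39.5 in null skin, against 27.5 and 38.6 in wild-type skin.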
